A study of Ovis aries with 9 samples.

Results

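The genes described here make the proteins that copy chromosomal DNA and the enzymes that supply its building blocks, deoxynucleotides. The set holds 43 genes taken from the standard replication pathway, in 9 role groups, and each was found by its symbol among the gene names of a table of 22605 loci. All 43 were present, and where a symbol stood at several loci, the locus with the highest mean level was kept. Of the 43 genes, 42 passed the filter on low values that the test needs, and CDC45 did not. The muscle was the longissimus dorsi, the long muscle of the back, of Chinese merino sheep fetuses. RNA was sequenced at gestation day 85 (D85), day 105 (D105) and day 135 (D135), with 3 libraries per day and no treatment or altered genotype in the labels. Nothing in the labels ties a library to a fetus of its own, and every p-value below therefore measures the spread between libraries, which may be technical. The comparisons ask how the level of these genes changed between the 3 days.

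Before a cell copies its DNA, the origin recognition complex with CDC6 and CDT1 loads the MCM2-7 helicase onto origins, a step called licensing. CDC45, the GINS complex and MCM10 then turn the loaded helicase into an active one, primase with polymerase alpha starts each new strand, and polymerases delta and epsilon extend it with the sliding clamp PCNA. RPA coats the exposed single strands, FEN1 and LIG1 finish the lagging strand, and ribonucleotide reductase, thymidylate synthase, thymidine kinase and dUTPase keep the deoxynucleotide pools. In skeletal muscle the nuclei inside fibres no longer divide, and DNA is copied in myoblasts, satellite cells and the other dividing cells of the tissue.

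Levels are FPKM, sequenced fragments relative to the length of the transcript and to the size of the library, so levels of different genes are compared per length. Summed over all loci the libraries held 395797 to 489270 FPKM, and the read depth behind a value is unknown, because FPKM keeps no counts. Median-of-ratios scaling divides each library by its typical ratio to the other libraries, and its factors were 1.08 to 1.18 at D85 and D105 and 0.788 to 0.85 at D135. With this scaling the median over all tested loci of the log2 change, D135 against D85, moved to 0.01 from -0.35 as deposited, so the counts of calls and the changes of the replication genes D135 against D85 are given in both versions. Genes named from other lists are given as deposited, with the scaled value where scaling changed the call, and cell type markers are given as deposited only. All log2 changes are of FPKM + 1, which shrinks the changes of low genes. Fibre markers were high in every library, with summed levels of 9464 to 12031 FPKM at D85, 11118 to 15000 FPKM at D105 and 19702 to 23455 FPKM at D135. D105 replicate 2 stood apart in its fibroblast markers, which summed to 6823 FPKM against 1444 to 3334 FPKM in the other 8 libraries, and in its tendon and cartilage markers, at 324 FPKM against 3.42 to 115 FPKM.

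Most replication genes were lower at D135 than at the earlier days, and none was called between D105 and D85. Summed over the 43 genes, the level was 348.8 ± 18.9 FPKM at D85, 295.8 ± 11.1 FPKM at D105 and 175.5 ± 5.72 FPKM at D135 (SD, n = 3 each). D135 against D85, 33 of the 42 tested genes fell, none was called higher and 9 did not pass the test (limma on log2(FPKM + 1), Benjamini-Hochberg adjusted over 13086 loci, threshold 0.05). Of all tested loci, 39.7% were called lower and 6.9% higher in this comparison. After median-of-ratios scaling 23 of the genes fell, where 12.5% of all loci were called lower, and RPA2 and RPA3 were called higher, where 14.9% of all loci were. The D135 mean ranged between 15.8% and 115% of the D85 mean among the tested genes, with a median of 44.8%. It was at or under 50% of the D85 mean for 27 genes as deposited and for 15 after scaling. How many of all tested loci were at or under that level was not counted.

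In 34 of the 42 tested genes all D135 libraries lay below all D85 libraries, as they did at 48.8% of all tested loci. The 8 genes whose libraries overlapped were ORC6, GINS2, GINS3, GINS4, RFC5, RPA2, RPA3 and FEN1. FPKM is relative to the size of the library. Bulk RNA cannot tell fewer replicating cells, less of these RNAs per cell and more of other RNAs apart. This holds for every fall below.

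**Figure D1:**
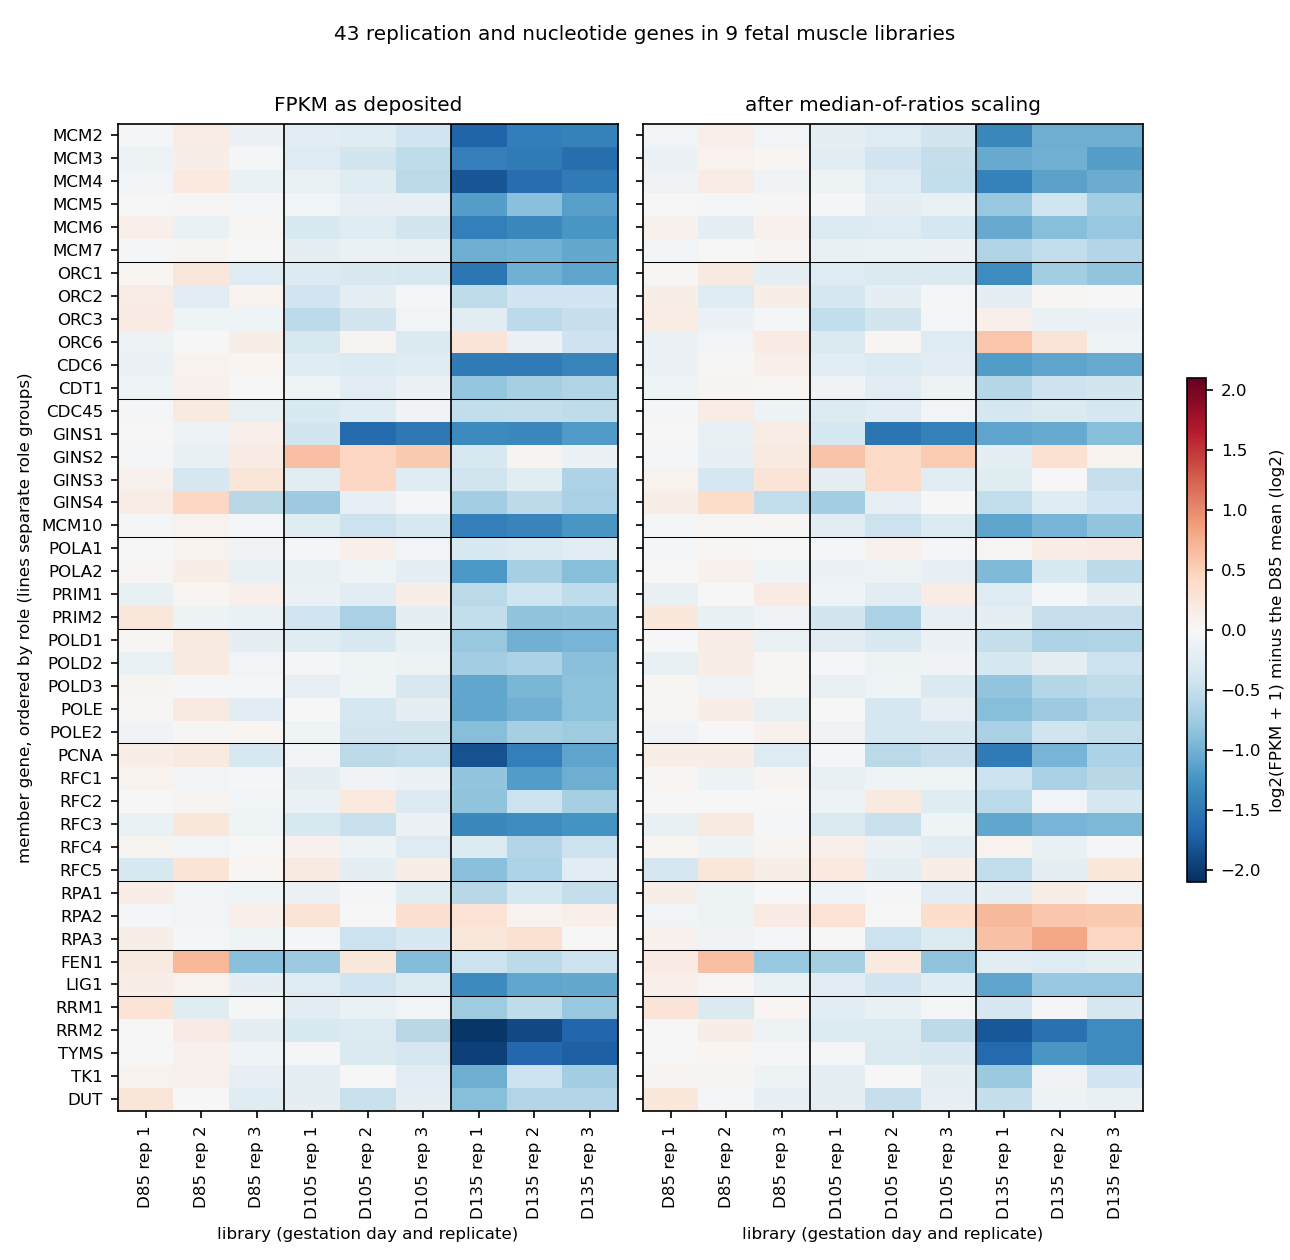
Level of the 43 genes (rows, by role) in the 9 libraries (columns, by day), as log2(FPKM + 1) minus the D85 mean of the gene, as deposited on the left and after median-of-ratios scaling on the right. The D135 columns are blue for most rows on the left, with RRM2 and TYMS darkest, and paler on the right, where RPA2 and RPA3 are red.

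The 6 subunits of the MCM2-7 helicase, the ring that unwinds DNA at the fork, all fell D135 against D85 as deposited and after scaling. Their summed level was 97.8 ± 5.12 FPKM at D85, 80.0 ± 5.28 FPKM at D105 and 35.4 ± 1.43 FPKM at D135 (SD, n = 3 each), so that D135 kept 36.1% of the D85 level, or 50.3% after scaling. MCM7 (locus MSTRG.10057) had 21.1, 22.6 and 21.5 FPKM at D85, 19.0, 19.7 and 19.4 FPKM at D105, and 10.2, 10.4 and 9.82 FPKM at D135. The libraries of the 3 days did not overlap, and the change D135 against D85 was -1.03 on the log2 scale (SE 0.07, limma adjusted p = 0.000126) and -0.59 after scaling (adjusted p = 0.0012).

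MCM4 (MSTRG.4917), a target of the kinase that fires origins, had the largest log2 change within the helicase, while MCM2 kept the lowest share of its D85 mean, 28% against 29.1% for MCM4. MCM4 levels were 19.1, 23.1 and 18 FPKM at D85, 18.1, 16.5 and 13.3 FPKM at D105, and 5.04, 5.93 and 6.55 FPKM at D135. D135 lay below both earlier days in every library, while D105 replicate 1 just exceeded D85 replicate 3. The log2 change D135 against D85 was -1.62 (SE 0.15, limma adjusted p = 0.000246), and -1.20 after scaling (adjusted p = 0.000918). The other 4 subunits changed by -1.06 to -1.52 in the same comparison as deposited, MCM5 least and MCM2 most, and by -0.65 to -1.14 after scaling. A further locus named MCM3, which holds no reference transcript, had 13.1 FPKM in D85 replicate 1, 5.95 FPKM in D135 replicate 1 and 0 elsewhere, and it is not included in these values.

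The subunits did not keep a constant proportion to each other. MCM2 was the lowest subunit in all 9 libraries, and MCM7 the highest in all but D85 replicate 2, where MCM4 was. The ratio of the highest to the lowest subunit within a library was 2.29, 2.19 and 2.5 at D85, 2.39, 2.56 and 2.87 at D105, and 4.54, 3.67 and 3.41 at D135. Every D135 library had a wider spread between subunits than any earlier library, a description with no test.

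Among the licensing factors, ORC1, ORC2, CDC6 and CDT1 fell D135 against D85, and ORC3 and ORC6 did not pass the test. CDC6 (101107536), the ATPase that with the origin recognition complex loads the helicase, had 5.37, 6.28 and 6.07 FPKM at D85, 4.77, 4.64 and 4.81 FPKM at D105, and 1.5, 1.48 and 1.6 FPKM at D135. The 3 days did not overlap, and D135 kept 25.9% of the D85 mean (log2 change -1.45, SE 0.09, limma adjusted p = 9.17e-05). After scaling the change was -1.11 (adjusted p = 0.000215). The origin recognition subunits were unequal. ORC1, which is known to be removed and remade in each cell cycle in human cells, averaged 0.65 ± 0.29 FPKM at D135 and 2.82 ± 0.661 FPKM at D85 (SD, n = 3 each), a log2 change of -1.21 (SE 0.17, limma adjusted p = 0.0012), and -0.96 after scaling (adjusted p = 0.0055).

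ORC2 (MSTRG.1576), a core subunit of the same complex, had 5.73, 4.22 and 5.35 FPKM at D85, 3.61, 4.31 and 4.88 FPKM at D105, and 3.2, 3.62 and 3.59 FPKM at D135. D135 lay below D85 in every library but overlapped D105, and the change D135 against D85 was -0.44 (SE 0.13, limma adjusted p = 0.0268). This call was lost when D85 replicate 1 or 3 or any D135 library was left out (adjusted p 0.0551 to 0.0864), and after scaling the change was -0.06 (adjusted p = 0.798). ORC3 changed by -0.42 (adjusted p = 0.0598), or -0.05 after scaling (adjusted p = 0.838), and passed without D105 replicate 3 or without D135 replicate 1 (adjusted p 0.039 and 0.046). ORC6 changed by -0.10 as deposited and by 0.25 after scaling, with adjusted p-values of 0.708 and 0.364. CDT1, which brings the helicase to the origin, fell by 0.72 on the log2 scale (SE 0.10, limma adjusted p = 0.00129), and by 0.47 after scaling (adjusted p = 0.0132).

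Apart from MCM10, the activation factors had at most 3.75 FPKM in any library. MCM10 (101106958), a scaffold of the active helicase, had 8.37, 9.05 and 8.27 FPKM at D85, 7.01, 5.97 and 6.70 FPKM at D105, and 2.53, 2.65 and 3.10 FPKM at D135. Its 3 days did not overlap, and the log2 change D135 against D85 was -1.35 (SE 0.10, limma adjusted p = 0.000143), and -0.97 after scaling (adjusted p = 0.000544). CDC45 (MSTRG.8048), a subunit of the working helicase, had 0.916, 1.24 and 0.764 FPKM at D85, 0.567, 0.652 and 0.869 FPKM at D105, and 0.374, 0.392 and 0.354 FPKM at D135. It was too low to test, since only 1 library reached 1 FPKM, and its D135 libraries lay below all others.

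The 4 GINS subunits, which bind each other and CDC45 in the active helicase, did not share a pattern. GINS1 (101106192) had 3.48, 3.10 and 3.75 FPKM at D85, 2.38, 0.448 and 0.563 FPKM at D105, and 0.748, 0.745 and 0.942 FPKM at D135. All D85 libraries were above all others, and D105 overlapped D135 because D105 replicate 1 was high and its other 2 libraries were low. GINS1 fell D135 against D85 (log2 change -1.29, SE 0.29, limma adjusted p = 0.00863), also after scaling (-1.02, adjusted p = 0.0318). D105 against D85 it changed by -1.17 (SE 0.29, adjusted p = 0.176), and by -1.56 without D105 replicate 1 (SE 0.12, adjusted p = 0.00663), the only gene of the set called between these days in any fit with a library left out.

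GINS2 (101103005) had 0.81, 0.647 and 1.06 FPKM at D85, 1.84, 1.47 and 1.68 FPKM at D105, and 0.444, 0.915 and 0.672 FPKM at D135. It was the 1 tested gene whose D105 libraries all lay above its D85 libraries, against 8% of all tested loci, with a log2 change of 0.54 (SE 0.15, limma adjusted p = 0.198). D135 against D105 it fell (log2 change -0.67, SE 0.15, adjusted p = 0.00943), and this call was lost after scaling (adjusted p = 0.098). D135 against D85 its change was -0.14 as deposited and 0.07 after scaling (adjusted p = 0.472 and 0.798). GINS3 and GINS4 overlapped between D135 and D85 and did not pass as deposited (-0.44 and -0.66, adjusted p = 0.168 and 0.0892) or after scaling (-0.25 and -0.40, adjusted p = 0.476 and 0.304), although GINS4 passed without D85 replicate 3 (adjusted p = 0.0167).

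All 4 subunits of the primase and polymerase alpha complex, which lays the RNA and DNA primer, fell D135 against D85 as deposited, and POLA2 alone passed after scaling. POLA1 (101115602), the catalytic subunit, had 5.25, 5.58 and 4.95 FPKM at D85, 5.10, 5.70 and 5.02 FPKM at D105, and 4.02, 4.15 and 4.36 FPKM at D135. D135 lay below both earlier days, which overlapped each other. The change D135 against D85 was -0.27 as deposited (SE 0.09, limma adjusted p = 0.0336) and 0.12 after scaling (adjusted p = 0.331), so its direction depended on the scaling. The call as deposited was also lost without D85 replicate 1 or 2 or any D135 library (adjusted p 0.0557 to 0.0948).

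POLA2 (101107399), the accessory subunit, had 4.03, 4.47 and 3.45 FPKM at D85, 3.48, 3.66 and 3.34 FPKM at D105, and 1.15, 2.05 and 1.67 FPKM at D135. D135 lay below all earlier libraries, with a log2 change against D85 of -0.93 (SE 0.14, limma adjusted p = 0.00165) as deposited and -0.60 (adjusted p = 0.0208) after scaling. The primase subunits PRIM1, which makes the RNA primer, and PRIM2 fell by 0.51 and 0.73 on the log2 scale as deposited (adjusted p = 0.0124 and 0.00879). After scaling PRIM1 changed by -0.17 and PRIM2 by -0.39 (adjusted p = 0.418 and 0.111).

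Polymerases delta and epsilon are the main lagging and leading strand enzymes. Their 5 subunits in the set fell D135 against D85 under both scalings. POLD4 and POLE4, subunits outside the set, did not pass as deposited. POLE (MSTRG.7835), the catalytic subunit of polymerase epsilon, had 2.05, 2.39 and 1.56 FPKM at D85, 1.95, 1.32 and 1.59 FPKM at D105, and 0.402, 0.482 and 0.633 FPKM at D135. All D135 libraries were below all earlier ones, which overlapped, and D135 kept 25.3% of the D85 mean (log2 change -0.99, SE 0.15, limma adjusted p = 0.00145), with a change of -0.76 after scaling (adjusted p = 0.0054). POLD2 (MSTRG.3088), an accessory subunit of polymerase delta and the most abundant of the 5 per length, had 9.75, 12.4 and 10.4 FPKM at D85, 10.4, 10.0 and 9.95 FPKM at D105, and 6.07, 6.41 and 5.42 FPKM at D135. D135 again lay below both earlier days, which overlapped. Its change was the smallest of the 5, at -0.76 as deposited (SE 0.11, adjusted p = 0.00109) and -0.34 after scaling (adjusted p = 0.0439), and that last call was lost with D105 replicate 2 also left out (adjusted p = 0.0566). POLD1, the catalytic subunit of polymerase delta, POLD3 and POLE2 fell by 0.78 to 0.97 on the log2 scale, and by 0.54 to 0.65 after scaling.

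PCNA (MSTRG.6461), the sliding clamp that holds polymerases on DNA, had 17.6, 18.2 and 12.3 FPKM at D85, 15.1, 10.4 and 10.8 FPKM at D105, and 3.76, 5.23 and 6.82 FPKM at D135. D85 and D105 overlapped, and every D135 library was below both. The log2 change D135 against D85 was -1.45 (SE 0.23, limma adjusted p = 0.00185) as deposited and -1.03 (adjusted p = 0.0127) after scaling.

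The 5 subunits of the clamp loader, which opens the ring and sets it on DNA, did not change equally. RFC1 (101109450), its large subunit, had 18.8, 17.2 and 17.6 FPKM at D85, 15.7, 17.0 and 16.4 FPKM at D105, and 9.60, 7.41 and 8.24 FPKM at D135. D105 lay just below D85, and D135 was far below both, with a log2 change against D85 of -1.01 (SE 0.10, limma adjusted p = 0.000315), and -0.58 after scaling (adjusted p = 0.00298). RFC3 fell by 1.30 on the log2 scale (SE 0.14, adjusted p = 0.000372) and kept its call after scaling (adjusted p = 0.00128). It averaged 1.06 ± 0.0683 FPKM at D135 and 4.12 ± 0.756 FPKM at D85 (SD, n = 3 each). RFC2 and RFC4 fell by 0.67 and 0.45 on the log2 scale as deposited (adjusted p = 0.00959 and 0.0193) and did not pass after scaling (-0.34 and -0.04, adjusted p = 0.161 and 0.848). The RFC4 call was lost without D85 replicate 1 or D135 replicate 2 (adjusted p = 0.0589 and 0.0667). RFC5 changed by -0.59 (adjusted p = 0.0548), or -0.16 after scaling (adjusted p = 0.636), with overlapping libraries, and passed without D85 replicate 1 or D135 replicate 3 (adjusted p = 0.031 and 0.0251).

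RPA, the single-strand binding complex that also serves DNA repair, kept the highest share of its D85 level among the role groups at D135, a description with no test. Its 3 subunits summed to 44.1 ± 2.46 FPKM at D85, 42.2 ± 2.49 FPKM at D105 and 41.3 ± 2.36 FPKM at D135 (SD, n = 3 each). The summed level of D135 was 93.6% of that at D85 as deposited and 130.1% after scaling, while the same share for the 8 other groups was 33.3% to 59.4% as deposited and 46.9% to 82.7% after scaling. RPA1 (MSTRG.5400), the large DNA-binding subunit, had 22.4, 19.3 and 19.0 FPKM at D85, 18.6, 19.7 and 16.8 FPKM at D105, and 13.1, 15.4 and 13.9 FPKM at D135. D135 lay below both earlier days, and RPA1 fell D135 against D85 by 0.49 on the log2 scale as deposited (SE 0.11, limma adjusted p = 0.00707). After scaling its change was -0.04 (adjusted p = 0.834).

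RPA2 (MSTRG.1756), the subunit phosphorylated in the response to DNA damage, had 11.6, 11.5 and 13.0 FPKM at D85, 14.9, 12 and 15.5 FPKM at D105, and 15, 12.7 and 12.9 FPKM at D135. The 3 days overlapped as deposited. Its log2 change D135 against D85 was 0.16 (SE 0.12, limma adjusted p = 0.305), and 0.60 after scaling (adjusted p = 0.0104), where every D135 library lay above the D85 and D105 libraries. RPA3 (MSTRG.2945), the small subunit, had 12.9, 11.6 and 11.1 FPKM at D85, 11.5, 8.41 and 9.23 FPKM at D105, and 14.1, 15 and 11.7 FPKM at D135. D135 lay above D105 in every library and overlapped D85.

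D135 against D105, RPA3 rose by 0.45 on the log2 scale (SE 0.14, limma adjusted p = 0.0328), and by 0.87 after scaling (adjusted p = 0.0056). The call as deposited was lost without D105 replicate 2 or 3 and without D135 replicate 1 or 2 (adjusted p 0.0829 to 0.105), and with only these 2 days in the fit. D135 against D85 its change was 0.18 as deposited (adjusted p = 0.31) and 0.62 after scaling (adjusted p = 0.0136). The RPA1 and RPA2 symbols each have a further locus without a reference transcript, listed at 0 in all 9 libraries for RPA1 and at 0 to 6.32 FPKM for RPA2.

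LIG1 (101104173), the ligase that joins lagging strand fragments, had 3.27, 3.10 and 2.38 FPKM at D85, 2.25, 1.93 and 2.21 FPKM at D105, and 0.549, 0.822 and 0.847 FPKM at D135. The 3 days did not overlap, and D135 kept 25.3% of the D85 mean (log2 change -1.17, SE 0.13, limma adjusted p = 0.000445), with a change of -0.90 after scaling (adjusted p = 0.00168). FEN1 (MSTRG.9195), the nuclease that trims those fragments, had 1.93, 3.17 and 0.401 FPKM at D85, 0.526, 2 and 0.368 FPKM at D105, and 0.886, 0.77 and 0.88 FPKM at D135. Its D85 and D105 libraries ranged on both sides of the D135 values, and the change D135 against D85 was -0.48 (SE 0.42, adjusted p = 0.38), and -0.23 after scaling (adjusted p = 0.704).

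All 5 genes of deoxynucleotide synthesis fell D135 against D85, RRM2 and TYMS most, and only those 2 passed after scaling. RRM2 (101118093), the small subunit of ribonucleotide reductase made in S phase, had 6.22, 7.14 and 5.35 FPKM at D85, 4.80, 4.89 and 3.81 FPKM at D105, and 0.743, 0.929 and 1.28 FPKM at D135. Its 3 days did not overlap. D135 kept 15.8% of the D85 mean, the lowest share in the set (log2 change -1.87, SE 0.15, limma adjusted p = 0.000163), and 22.1% after scaling (-1.56, adjusted p = 0.000319). TYMS (MSTRG.9617), which makes thymidylate from deoxyuridylate, had 11.8, 12.4 and 10.9 FPKM at D85, 11.3, 9.30 and 8.95 FPKM at D105, and 2.24, 3.04 and 2.87 FPKM at D135. D85 and D105 overlapped, D135 was far below both, and the log2 change D135 against D85 was -1.78 (SE 0.12, adjusted p = 0.000126), and -1.39 after scaling (adjusted p = 0.000352).

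RRM1 (MSTRG.7425), the large subunit of the same reductase, had 22.7, 15.2 and 17.9 FPKM at D85, 15.4, 16.6 and 17.5 FPKM at D105, and 10.6, 12.4 and 10.1 FPKM at D135. D135 lay below both earlier days, and the change against D85 was -0.69 (SE 0.15, limma adjusted p = 0.00676). DUT (MSTRG.4415), the dUTPase that keeps uracil out of DNA and the gene with the highest D85 mean of the set, had 27.7, 23.3 and 19.3 FPKM at D85, 19.9, 16.5 and 19.9 FPKM at D105, and 12, 14.9 and 14.8 FPKM at D135. All D135 libraries were below the others, with a change against D85 of -0.70 (SE 0.15, adjusted p = 0.00695). TK1, the cytosolic thymidine kinase that recycles thymidine, fell by 0.73 on the log2 scale (SE 0.16, adjusted p = 0.00842). After scaling the changes of RRM1, DUT and TK1 were -0.25, -0.26 and -0.42, with adjusted p-values of 0.293, 0.267 and 0.115.

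**Figure D2:**
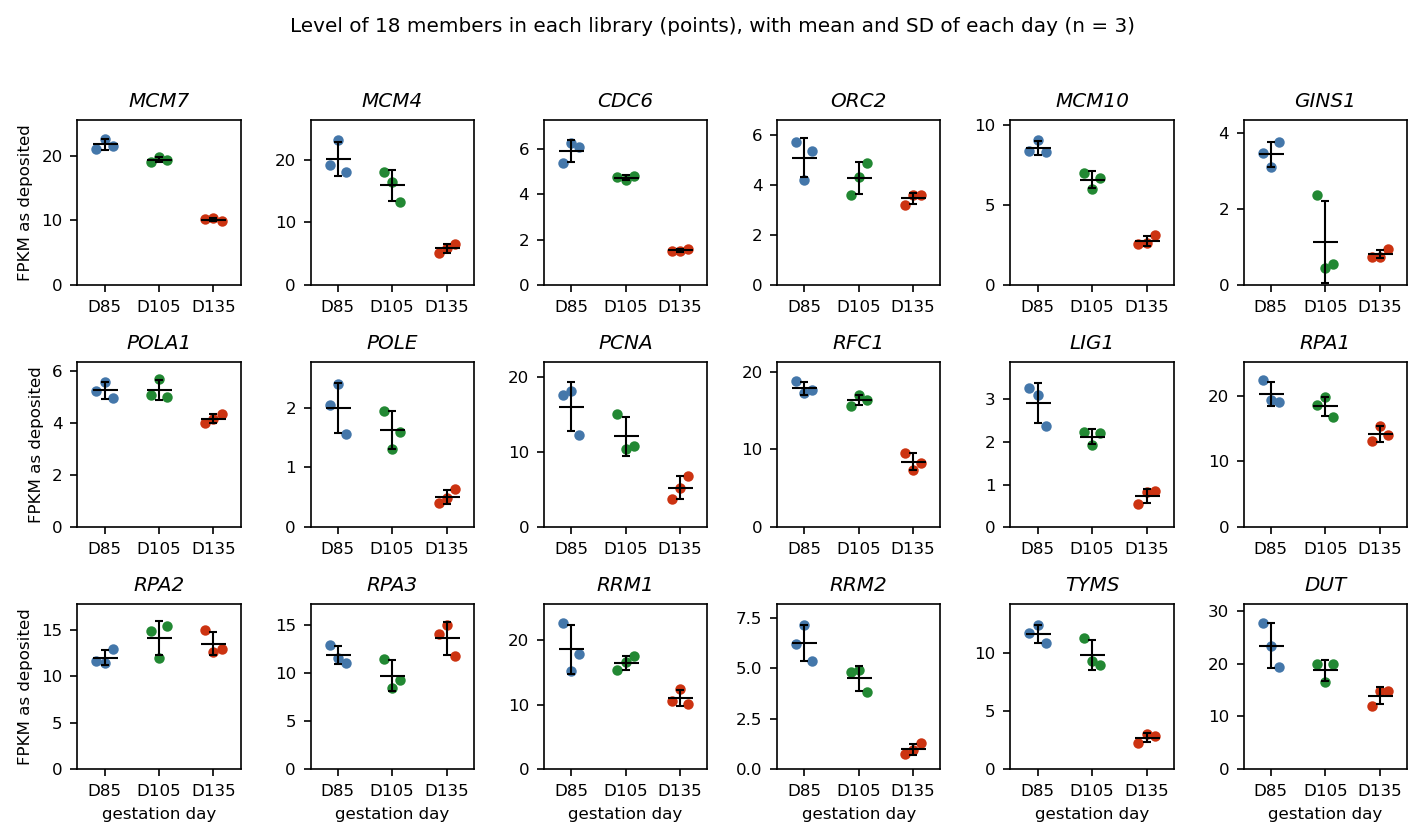
Level in FPKM as deposited (vertical axes start at 0) of 18 of the genes at D85, D105 and D135, with a point per library and the mean and SD of each day (n = 3). MCM7, CDC6, MCM10, LIG1 and RRM2 have 3 separate days, GINS1 has 1 high D105 library at 2.38 FPKM, and RPA2 has days that overlap.

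Between D85 and D105 no gene of the set was called in either direction, while 0.0535% of all tested loci were called lower and 0.145% higher (limma, Benjamini-Hochberg adjusted). At an unadjusted p under 0.05 there were 11 of the 42 genes, 10 of them lower, where 12.3% of all tested loci passed that level and 6.66% did so with a lower value. The log2 change was below 0 for 38 of the 42 genes, against 54.5% of all tested loci, and all D105 libraries lay below all D85 libraries for 16 genes, against 10.4% of loci. The median change of the genes was -0.22, and -0.02 over all tested loci. The lowest adjusted p in the set was 0.176, for GINS1.

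D135 against D105, 30 of the 42 genes fell, RPA3 alone rose and 11 did not pass (limma). Of all tested loci 35% were called lower and 4.47% higher. After scaling 16 of the genes fell, where 6.96% of all loci were called lower, and RPA3 rose, where 10.6% of loci were called higher. The 16 were the 6 MCM2-7 subunits, ORC1, CDC6, MCM10, POLD3, POLE, RFC1, RFC3, LIG1, RRM2 and TYMS, all of which also passed as deposited. All D135 libraries lay below all D105 libraries for 32 genes, against 47.7% of all tested loci.

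Leaving out each of the 9 libraries in turn, 23 of the 31 calls D135 against D105 held in every fit. Besides RPA3, the calls of POLA1, PRIM1, RFC2, RFC5, RPA1, RRM1 and TK1 were lost in 2 to 7 of the 9 fits, each of them without D135 replicate 1. Without D105 replicate 2, the library with high fibroblast markers, 25 of the 40 genes then tested fell D135 against D105 and 0 rose, and 33 fell D135 against D85. Of the 12909 loci tested in that fit, 3764 fell and 555 rose D135 against D105, and 5212 fell D135 against D85. Leaving out a D105 library also lost calls. These were POLA1 and RFC5 (each of the 3), PRIM1 (replicates 1 and 3), RPA1 and TK1 (1 and 2) and RRM1 (2 and 3). Without D135 replicate 3 the calls of POLA1, PRIM1, RFC2, RPA1, RRM1 and TK1 were lost, and without D135 replicate 2 those of POLA1 and RFC5. The POLA1 call was also lost without D85 replicate 1, and the RFC5 call without D85 replicate 3. The limma adjusted p was 0.0501 to 0.14 over all these fits. D85 libraries do not enter the change D135 against D105 itself, only its spread, the filter and the adjustment. With all libraries the limma adjusted p was 0.0376 for POLA1 and 0.0498 for RFC5, near the threshold.

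The later interval spans more days than the earlier, and changes were not divided by days, so unequal changes need not mean unequal rates. The change of the later interval was more negative than that of the earlier for 36 of the 42 genes as deposited. This held at 74.9% of all tested loci. After scaling it held for 28 genes and at 48.6% of loci. The difference between the intervals had a median of -0.53 over the genes and -0.32 over all tested loci as deposited, and of -0.22 and 0.02 after scaling. Tested directly, the difference passed for none of the genes, where 0.275% of all loci were called with a more negative change in the later interval and 0.0764% with a more positive one (limma, adjusted). After scaling it again passed for none, where these shares were 0.0382% and 0.0764%. At an unadjusted p under 0.05 there were 20 genes as deposited, 19 of them with the more negative change later, where 24.4% of all tested loci passed that level and 21.5% did so with the more negative change. After scaling there were 8 genes, 6 of them with the more negative change later, against 14.7% and 5.09% of loci. The lowest adjusted p was 0.0572 as deposited, for CDC6 and TYMS, and 0.111 after scaling, for RPA3. The means descended in the order D85, D105, D135 for 35 of the 42 genes as deposited and for 29 after scaling. How many of all tested loci had that order was not counted. As deposited, the later change was the higher one for ORC3, ORC6, GINS1, PRIM2, RPA3 and FEN1. GINS1 had a change of -1.17 in the earlier interval and -0.12 in the later, and a difference of 1.05 (SE 0.51, limma adjusted p = 0.245). RPA3 had -0.27 and 0.45, and a difference of 0.72 (SE 0.24, adjusted p = 0.133). Over any of the 3 days, 33 of the 42 genes passed the moderated F test, against 43.2% of all tested loci.

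**Figure D3:**
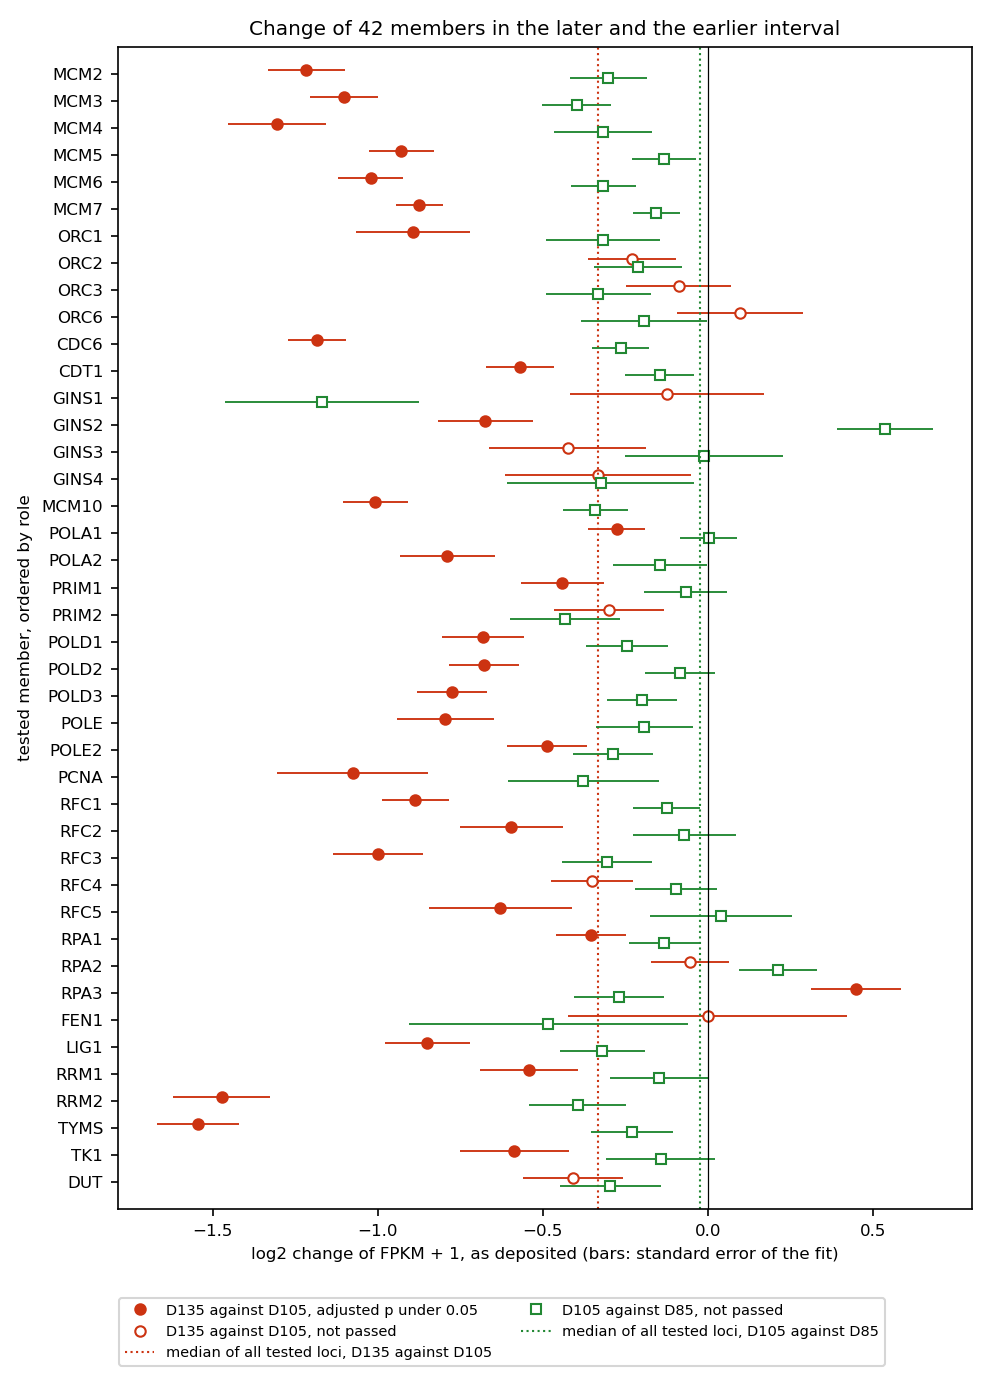
Log2 change of FPKM + 1 as deposited for the 42 tested genes, D135 against D105 (circles, filled where the limma adjusted p is under 0.05) above D105 against D85 (open squares), with standard errors of the fit and the median of all tested loci as dotted lines. RRM2 and TYMS have the largest later falls, at -1.47 and -1.55, GINS1 has the largest earlier change, and RPA3 is the 1 filled circle right of 0.

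Set against all loci, the genes were displaced to lower values in every comparison of days under both scalings. Their median log2 change D135 against D85 was -0.77, against -0.35 for all tested loci, a distance of -0.42. After scaling the medians were -0.50 and 0.01, a distance of -0.51. D105 against D85 the medians were -0.22 and -0.02 as deposited, and -0.21 and -0.01 after scaling. D135 against D105 the distance was -0.32 as deposited and -0.33 after scaling. These distances describe the list and were not tested.

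**Figure D4:**
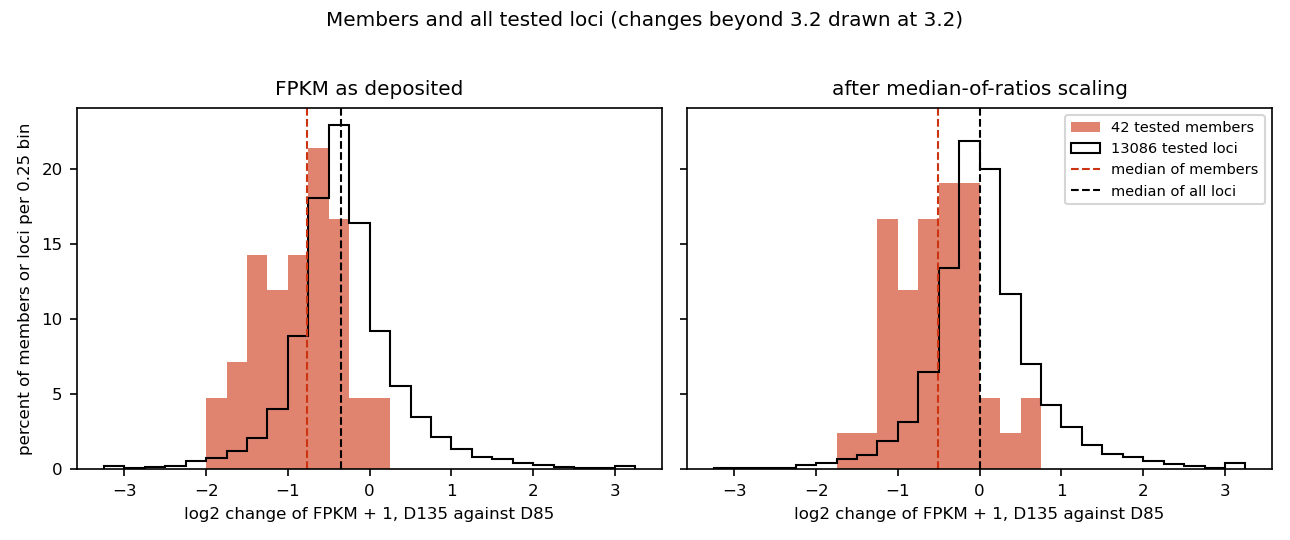
Distribution of log2 changes of FPKM + 1, D135 against D85, for the 42 tested genes (red) and the 13086 tested loci (black line), as percent per bin, as deposited on the left and after median-of-ratios scaling on the right. Dashed lines are the medians, -0.77 for the genes and -0.35 for all loci on the left, -0.50 and 0.01 on the right.

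Ratios between genes inside a library do not depend on the scaling of that library. The 6 ratios here were chosen after the values had been seen. RRM2 per RRM1, the small against the large reductase subunit, was 0.274, 0.47 and 0.299 at D85, 0.312, 0.295 and 0.217 at D105, and 0.0702, 0.075 and 0.127 at D135. RRM2B per RRM2, the p53-inducible small subunit that serves cells outside S phase against the S phase one, was 0.253, 0.191 and 0.148 at D85, 0.341, 0.389 and 0.387 at D105, and 3.25, 0.832 and 1.64 at D135. Every D135 library had less RRM2 relative to RRM1 and to RRM2B than any earlier library, and RRM2B exceeded RRM2 in 2 of the 3. RRM2B itself averaged 1.76 ± 0.873 FPKM at D135 and 1.24 ± 0.406 FPKM at D85 (SD, n = 3 each), with overlapping libraries (limma adjusted p = 0.428).

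The mean MCM2-7 level per mean RPA level was 1.02, 1.22 and 1.09 at D85, 0.939, 1.01 and 0.895 at D105, and 0.401, 0.425 and 0.462 at D135. CDC6 per ORC2, the loader against a core origin subunit, averaged 1.19 ± 0.279 at D85, 1.13 ± 0.175 at D105 and 0.441 ± 0.029 at D135 (SD, n = 3 each). TYMS per DUT averaged 0.508 ± 0.0736, 0.527 ± 0.0675 and 0.195 ± 0.00903 on the same days, and POLA2 per POLA1 averaged 0.755 ± 0.0526, 0.663 ± 0.0206 and 0.388 ± 0.103. In all 6 ratios no D135 library overlapped a library of the earlier days, a description of ratios chosen after their values had been seen. Each comparison of D135 with an earlier day gave an exact two-sided permutation p = 0.1, the smallest that 3 against 3 libraries allow, and 0.12 after adjustment over the 18 comparisons. Because of that choice these p-values are no evidence for a change.

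**Figure D5:**
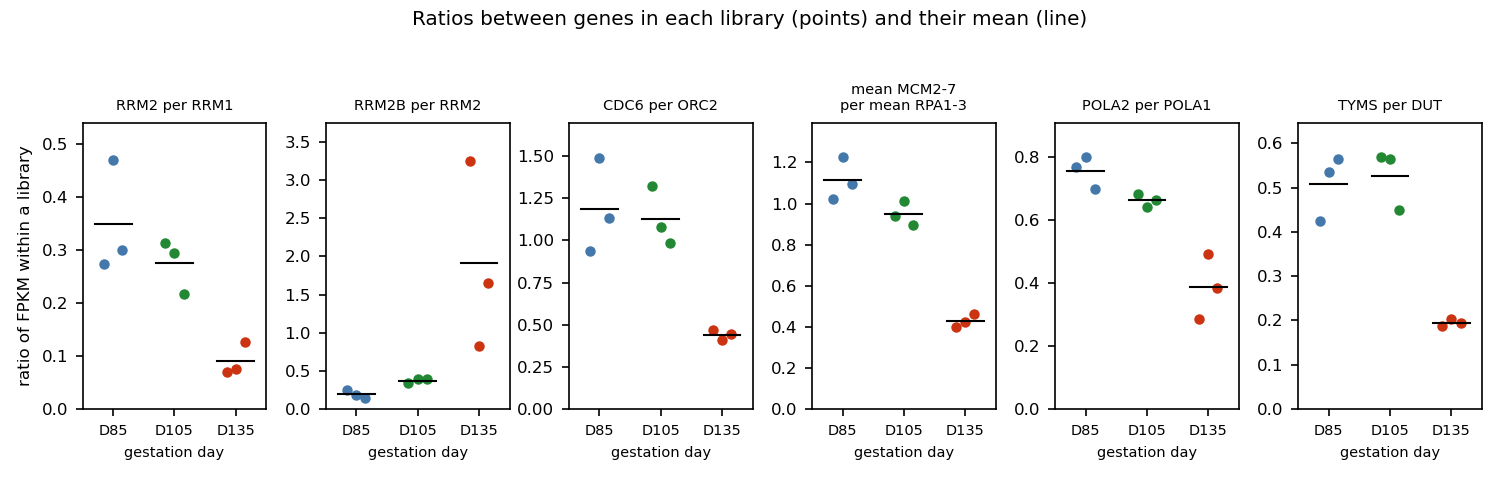
The 6 ratios of FPKM between genes within a library at D85, D105 and D135 (vertical axes start at 0), with a point per library and the mean of the day as a line. D135 points lie below all earlier points in every panel except RRM2B per RRM2, where they lie above them, between 0.832 and 3.25.

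Of 40 tested replication factors outside the set, 36 fell D135 against D85 and none was called higher, and 22 fell after scaling (limma), where 39.7% of all tested loci were called lower as deposited and 12.5% after scaling. The median change was -0.85 as deposited and -0.49 after scaling. The largest log2 change of FPKM + 1 was that of TOP2A, the topoisomerase that untangles sister DNA, which had 4.38, 5.06 and 7.18 FPKM at D135 against 26.1, 30.1 and 24.5 FPKM at D85 (log2 change -2.11, SE 0.16, adjusted p = 0.000156). RECQL4, a helicase of origin firing, PCLAF, a PCNA-binding protein listed under its older symbol, and UHRF1, which guides maintenance of DNA methylation, had changes of -1.71, -1.62 and -1.54. By the share of the D85 mean kept at D135, RECQL4 and PCLAF were lower, at 14.2% each, than TOP2A, at 20.6%. ORC4, MCM9, POLD4 and POLE4 did not pass. All 15 markers of later cell cycle phases, TOP2A among them, fell under both scalings, with a median change of -1.60 as deposited and -1.26 after scaling. MKI67, the Ki-67 proliferation antigen, had 1.74, 1.76 and 3.19 FPKM at D135 against 9.48, 15.1 and 7.78 FPKM at D85 (log2 change -1.85, SE 0.25, adjusted p = 0.000925). NUSAP1 and CENPF, of the same markers, had changes of -2.02 and -1.93.

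Of 28 other tested enzymes of nucleotide synthesis, 20 fell and 1 rose D135 against D85 as deposited, and 5 fell and 2 rose after scaling (limma). The shares of all loci called lower and higher were 39.7% and 6.9% as deposited, and 12.5% and 14.9% after scaling. The most negative log2 changes were in PPAT, PAICS and PFAS, enzymes of the purine pathway, and CTPS1, which makes CTP, with changes of -1.34, -1.27, -1.21 and -1.22. ADSL, which acts in purine synthesis and in the purine nucleotide cycle of muscle, was the 1 that rose as deposited. It had 21.7, 33.6 and 25.5 FPKM at D135 against 19.8, 18.5 and 16.0 FPKM at D85, without overlap (log2 change 0.53, SE 0.15, adjusted p = 0.0235).

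Regulators of the step from G1 into S phase fell at 24 of 31 tested genes D135 against D85 and at 15 after scaling, and none was called higher (limma), against 39.7% of all tested loci called lower as deposited and 12.5% after scaling. SKP2, which targets the inhibitor CDKN1B for degradation, had the largest log2 change of FPKM + 1, with 3.49, 4.64 and 4.99 FPKM at D135 against 22.0, 26.2 and 23.4 FPKM at D85 (log2 change -2.22, SE 0.12, adjusted p = 8.24e-05). It kept 18.3% of its D85 mean, while CDKN1A and CDC25A, a phosphatase that activates cyclin-dependent kinases, kept 16% and 17.6%. E2F1, an activator of replication genes, and CCND2, a G1 cyclin, fell by 1.34 and 1.67 on the log2 scale. The fall was not limited to activators: the inhibitors CDKN1A and CDKN1C fell by 2.07 and 1.16 (adjusted p = 0.00754 and 0.0018), and CDKN1B changed by -0.29 with overlapping libraries (adjusted p = 0.528). E2F4, mostly a repressor with the pocket proteins, fell by 0.74 as deposited and did not pass after scaling (adjusted p = 0.0685). CCNE2 fell by 0.83 (adjusted p = 0.00343), and CCNE1 was too low to test, at 0.455 to 0.873 FPKM at D135 and 0.786 to 1.52 FPKM at D85.

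Mitochondrial DNA is copied by a separate set of enzymes, and 7 of 14 tested genes of that set fell D135 against D85, with 0 called higher. After scaling 2 fell and 2 were called higher (limma). Of all tested loci, 39.7% were called lower as deposited, and 12.5% lower and 14.9% higher after scaling. The median change was -0.42, close to the -0.35 of all tested loci. PRIMPOL, POLRMT, LIG3 and MGME1 fell by 0.93, 0.66, 0.65 and 0.53 on the log2 scale as deposited. POLRMT and MGME1 did not pass after scaling (-0.32 and -0.16, limma adjusted p = 0.0681 and 0.519). POLG, the mitochondrial polymerase, averaged 10.9 ± 0.689 FPKM at D135 and 11.6 ± 2.27 FPKM at D85 (SD, n = 3 each), a change of -0.07 (adjusted p = 0.694), which became 0.37 after scaling (adjusted p = 0.0421). TK2, the mitochondrial thymidine kinase, changed by -0.30 (adjusted p = 0.101).

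The 6 matched markers of myoblasts and satellite cells summed to 35.3 to 54.2 FPKM at D85, 19.6 to 55.4 FPKM at D105 and 14.6 to 17.8 FPKM at D135, and 4 of the 5 tested fell D135 against D85 (PAX7, MYF5, MYOD1 and CDH15), MYF5 with 1 D85 library at 18.9 FPKM and the others at 3.55 and 3.99 FPKM. PAX7, which marks satellite cells, had 0.588, 0.494 and 0.471 FPKM at D135 against 2.46, 3.73 and 2.28 FPKM at D85, without overlap (log2 change -1.31, limma adjusted p = 0.000738). MYOG, of differentiating myoblasts, changed by -0.15 (adjusted p = 0.718), and PAX3 was too low to test, but was above both earlier days in every D135 library, at 0.112 to 1.1 FPKM against at most 0.0726 FPKM. Of 9 muscle fibre markers 6 rose D135 against D85 and MYH8, a perinatal myosin, fell. MYH8 is listed as LOC101111723, and its symbol was matched through a reference gene list. Beside these counts of markers, 39.7% of all tested loci were called lower and 6.9% higher in the same comparison. Among other cell types, summed levels were 22.6 to 48.6 FPKM at D85, 30.5 to 54.4 FPKM at D105 and 23.1 to 28.3 FPKM at D135 for leukocyte markers, and 158 to 188, 246 to 259 and 181 to 224 FPKM for endothelial markers. Of 8 tested endothelial markers 4 were called higher and 0 lower D135 against D85, beside the shares of all loci above. Of 5 tested leukocyte markers 0 were called higher and 1 lower. Erythroid markers summed to 1.92 to 8.34 FPKM over all libraries. The part that a changed mix of cells has in the falls of the replication genes was not tested.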

How the data were processed

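RNA libraries of the muscle at 3 gestation days, 3 per day, were grouped by the titles and the age in the labels. FPKM values per locus were deposited by the authors, per the file headers; cutadapt, Bowtie2 and TopHat2 are named, without versions or order, in the submitters' processing notes. For the genome build, assembler, annotation and strand setting nothing is given in the sources used here, so no coordinates are printed, and reads of a gene and an overlapping or near-identical one cannot be told apart. The design text names more than 1 sequencer model but not the model used for each library, so no batch could be tested. Depth is unknown, and no interval or count test is given.

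The filter kept a locus if 3 or more libraries reached 1 FPKM, which left 13086 loci. Their log2(FPKM + 1) values, on which fold changes of low genes are understated, were tested with limma 3.58.1 in R 4.3.3 (1 model of all 9 libraries with no block, eBayes with its trend option, 6 residual degrees of freedom, two-sided, Benjamini-Hochberg over all tested loci, threshold 0.05). Median-of-ratios factors used 16950 loci above 0 in every library. Alternatives were a pseudocount of 0.1, no filter or one on the mean, median-of-ratios and quantile scaling, no variance trend, library weights, only the 2 days compared, a replicate block, and each library left out. The members and lists were chosen with earlier results of these data known, and counts over them support nothing beyond the values given. Values of every library are given by rule for the most abundant and the most changed gene of each role group, those with a positive change D135 against D85, and CDC45. GINS1, GINS2, TYMS, RRM1, FEN1 and the ratios were chosen after their values were seen. Of other lists the up to 4 most changed genes in each direction and a fixed set (E2F1, E2F4, CDKN1A, CDKN1B, CDKN1C, CCNE1, CCNE2, MKI67, TOP2A, RRM2B, TK2, POLG) are named; a further gene of that set is not reported here. CDC25A, ORC4, MCM9, POLD4 and POLE4 are named outside this rule. NME1, ADSS1 and TOP1MT were not matched. The 3 comparisons share libraries. Promoters and protein sequences were not used here.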

Additional observations from a re-analysis of the deposited data

How the results depend on the processing

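Of the values under alternative settings, 179 of the list summaries were close to those reported and 28 moved; for the 17 genes followed singly under each setting (CDC6, DUT, LIG1, MCM4, MCM7, MCM10, ORC2, PCNA, POLA1, POLA2, POLD2, POLE, RFC1, RPA1, RPA2, RPA3 and RRM2) D135 against D85, 292 values kept direction and call, 22 lost the call, 6 gained it and 3 changed direction. The number of genes that fell D135 against D105 was 16 after median-of-ratios scaling, 16 after quantile normalization and 14 with median-of-ratios scaling and D105 replicate 2 left out, an alternative chosen after seeing the data. Of all tested loci, 911, 1072 and 749 fell in these fits. The number that rose D135 against D105 was 0 with only the 2 days compared and 0 to 1 with a library left out. Of all tested loci, 546 rose with only the 2 days compared and 418 to 583 with a library left out. The number that fell D105 against D85 was 0 to 1 with a library left out, where 3 to 18 of all tested loci fell. The number higher D135 against D85 was 2 after median-of-ratios scaling, 2 after quantile normalization and 2 with median-of-ratios scaling and D105 replicate 2 left out. Of all tested loci, 1952, 1599 and 1976 were called higher in these fits. The median relative to all loci, D135 against D105, was -0.49 with a pseudocount of 0.1, -0.49 with no filter, -0.41 with median-of-ratios scaling without D105 replicate 2, and -0.40 to -0.19 with a library left out. D135 against D85 it was -0.64 with a pseudocount of 0.1, -0.63 with no filter, -0.51 with median-of-ratios scaling, -0.56 with that scaling without D105 replicate 2, and -0.57 to -0.41 with a library left out. Genes with unequal change in the 2 intervals numbered 1 with a pseudocount of 0.1 (CDC6) and 3 with library weights (MCM7, CDC6 and TYMS). Of all 13086 tested loci, 52 and 164 were called in these fits. POLA1 changed direction D135 against D85, at 0.12 with median-of-ratios scaling, 0.069 with quantile normalization and 0.12 with that first scaling without D105 replicate 2. Outside these genes, ORC6 and GINS2, neither of them called, also changed sign with median-of-ratios scaling, at 0.25 and 0.07. The cause was not tested.

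With the replicate number as a block, 26 genes fell D135 against D105, 32 D135 against D85 and 0 D105 against D85. Of all 13086 tested loci, 3794, 4660 and 2 fell in these comparisons. The POLA1 call D135 against D85 was lost with the block (limma adjusted p = 0.0625). The titles share only a number: deviations from the day means correlated at -0.0659 to 0.0605 in the 9 pairs of same-numbered libraries and at -0.0933 to 0.052 in the 18 others.

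Genes near 1 FPKM, CDC45, FEN1 and the GINS subunits among them, rest on few fragments of unknown number.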
